A study of Mus musculus with 22 samples.

Results

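The 5hmC and 5mC levels of mouse cortex were set side by side across the autosomes, in the 3 TAB-seq and the 3 oxBS-seq libraries of this tissue, which are 6 of the 16 libraries with levels and of the 22 samples of the series. TAB-seq shields 5hmC with a glucose and oxidizes 5mC with a TET enzyme, which leaves 5hmC as the mark that survives bisulfite treatment as C, whereas oxBS-seq oxidizes 5hmC chemically beforehand and thereby reads 5mC. All cortex libraries came from C57BL/6 female mice at 8 weeks of age with no treatment, and the tissue was the whole cerebral cortex without the hippocampus. The replicates are described as tissue of independent mice, although the labels call them technical replicates. The libraries of olfactory bulb and cerebellum, from mice of the same strain and age, served as a comparison only, with 3 TAB-seq and 2 oxBS-seq libraries each.

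The members were the bins of 1 Mb on chromosomes 1 to 19 that had a level in every library of both assays. The 5mC level, given in bins of 100 kb, was averaged into the same bins of 1 Mb after levels of 0 or 1 were dropped. This left 2413 of the 2470 autosomal bins of 1 Mb and 24011 of the 24618 autosomal bins of 100 kb. The other 57 bins of 1 Mb were listed at 0 in each TAB-seq library. The unmodified rest of a bin is 1 minus its 5hmC and its 5mC level. The share of 5hmC is 5hmC over the sum of 5hmC and 5mC, in percent. The paper's methods give levels per CpG site. The levels, the rest and modified or unmodified cytosine are therefore read here as those of CpG sites, not of all cytosines.

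In mammalian DNA, DNMT enzymes add a methyl group to cytosine, mostly where C is followed by G, to give 5mC, and TET enzymes oxidize 5mC to 5hmC. 5hmC is known to be abundant in neurons and to lie mainly within gene bodies, whereas CpG islands at gene starts are mostly free of both marks. Adult cortex mixes excitatory neurons, interneurons, astrocytes, oligodendrocytes, microglia and vessel cells. A level in such bulk tissue cannot tell a mark carried by fewer cells from a mark present on a smaller part of the copies in every cell.

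A short sequence from each of several bins at the extremes is given as an example, which does not represent the whole bin. For the bins with the highest 5hmC, the lowest 5hmC, the largest rest and the smallest rest, the window of 200 bases nearest to the middle of the bin was taken that lay outside repeats and annotated exons and held as many CpG sites as the bin's CpG density predicts for that length. Capitals mark the CpG sites, and the letters are the plus strand of GRCm38 (mm10), from the RefSeq sequence of that build.
Ntm bin, highest 5hmC, chr9:29500021-29500220, within an intron of Ntm: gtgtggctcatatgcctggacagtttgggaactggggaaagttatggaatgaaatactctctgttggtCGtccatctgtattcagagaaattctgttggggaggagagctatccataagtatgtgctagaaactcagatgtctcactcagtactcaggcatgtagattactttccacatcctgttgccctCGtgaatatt
Vmn1r bin, lowest 5hmC, chr7:22497991-22498190, between genes: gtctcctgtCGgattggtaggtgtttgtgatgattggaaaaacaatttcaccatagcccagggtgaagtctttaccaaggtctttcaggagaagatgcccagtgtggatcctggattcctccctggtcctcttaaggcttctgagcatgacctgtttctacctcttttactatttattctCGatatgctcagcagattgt
Gng7 and Sbno2 bin, largest rest, chr10:80500691-80500890, within an intron of Onecut3: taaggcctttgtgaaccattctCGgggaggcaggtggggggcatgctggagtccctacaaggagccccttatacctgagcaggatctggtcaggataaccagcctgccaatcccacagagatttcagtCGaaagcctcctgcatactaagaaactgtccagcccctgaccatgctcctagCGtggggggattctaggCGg
Lpp bin, smallest rest, chr16:24500231-24500430, within an intron of Lpp: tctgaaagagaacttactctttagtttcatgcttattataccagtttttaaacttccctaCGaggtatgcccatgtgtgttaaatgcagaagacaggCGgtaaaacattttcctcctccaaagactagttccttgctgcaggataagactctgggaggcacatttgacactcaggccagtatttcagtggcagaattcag
The windows of the highest and the lowest 5hmC bin hold 2 CpG sites each, since both bins have about the same CpG density, 7.70 and 7.54 sites per kb. Their 5hmC levels nevertheless lay at opposite ends of the range. The window of the bin with the largest rest holds 4 CpG sites, from a bin with 20.05 sites per kb. The levels described from here on belong to the whole bins, not to these windows.

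Averaged over the autosomal bins, cortex had a 5hmC level of 0.169 ± 0.00980 (SD, n = 3) and a 5mC level of 0.674 ± 0.0148 (SD, n = 3). This left an unmodified rest of 0.157 ± 0.0177. The 3 TAB-seq libraries had mean 5hmC levels of 0.167, 0.180 and 0.160. The 3 oxBS-seq libraries had mean 5mC levels of 0.681, 0.684 and 0.657. The oxBS-seq library of replicate 3 was thus the lowest, by more than the other 2 differed from each other, and the SDs of 5mC levels in the text carry this shift. 5hmC made up 20.1% ± 0.993 of the modified cytosine. For each kind of mark the replicates ordered the bins in nearly the same way, with Pearson's r across bins of 0.993 to 0.995 among TAB-seq libraries and of 0.984 to 0.991 among oxBS-seq libraries. The files hold no read counts, so the depth behind a level is unknown and the SD over libraries is the only error given. Chromosome X, which is not part of the autosomal bins, had 0.0774 5hmC, 0.721 5mC and a rest of 0.201 over 168 bins.

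5hmC was the mark that varied most across the genome relative to its mean. Its SD over bins was 0.0403, which is 23.8% of the mean, against 7.78% for 5mC. The lowest bin had a 5hmC level of 0.0168 and the highest 0.253. No conversion rate per library was used here, so how much of the lowest levels is background was not measured. Most bins were far from the low end, with a 5th percentile of 0.0931, a median of 0.177 and a 95th percentile of 0.219. 5mC ran from 0.436 to 0.833 and the rest from 0.0619 to 0.409. The share of 5hmC in modified cytosine ran from 2.15% to 30.4%.

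**Figure D1:**
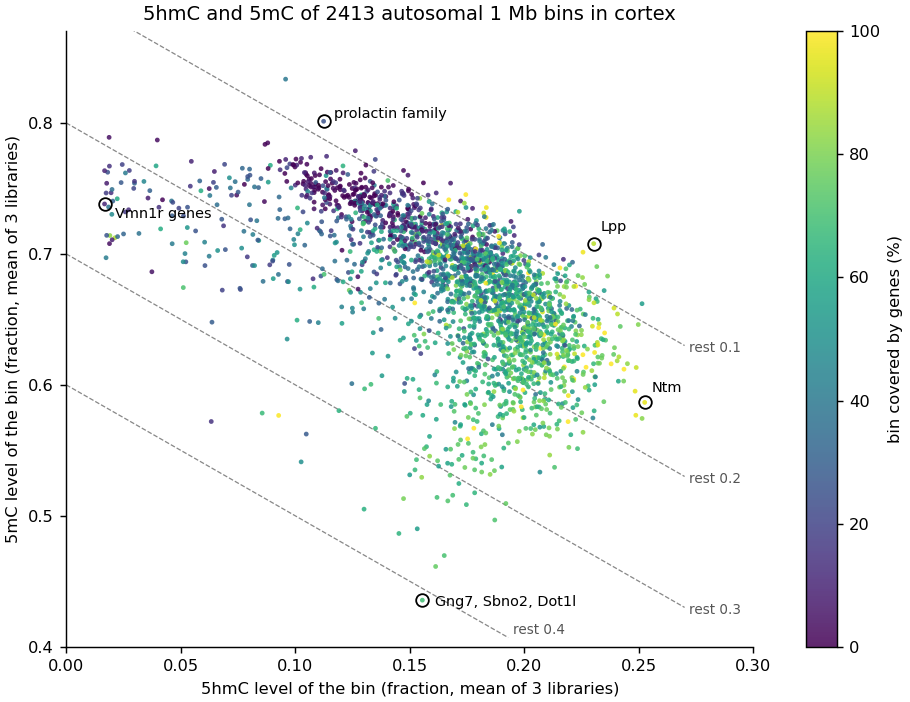
Each point is an autosomal bin of 1 Mb, with its 5hmC level on the x axis and its 5mC level on the y axis (fractions, means of 3 libraries per assay), coloured by the percent of the bin covered by genes. Dashed lines join bins with the same unmodified rest. The bins run from low 5hmC and high 5mC at upper left, where few genes lie, to high 5hmC and lower 5mC at right, with a sparse group of bins of large rest below.

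Bins that genes covered more fully had more 5hmC and less 5mC. The bins were ranked by the percent of their length covered by annotated genes and cut into 5 classes of 482 or 483 bins. From the class with least coverage to the class with most, the mean 5hmC level was 0.135, 0.157, 0.175, 0.183 and 0.196. The 5mC level was 0.727, 0.692, 0.666, 0.646 and 0.640 over the same classes. The rest was 0.138, 0.151, 0.159, 0.171 and 0.165, so it was highest in the class before the last. The share of 5hmC in modified cytosine went from 15.7% to 23.4%.

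Within each library the top class minus the bottom class gave a 5hmC difference of 0.0606, 0.0628 and 0.0579, with a mean of 0.0604 ± 0.00247 (SD, n = 3). The corresponding 5mC differences were -0.0911, -0.0834 and -0.0879, with a mean of -0.0875 ± 0.00389 (SD, n = 3). Both differences had the same sign in every library and exceeded the SD over libraries many times over. The rest was higher by 0.0270 ± 0.00461 in the top class. With 3 libraries a sign test could not go below 0.25, so no p is given. Expressed as a ratio, gene-rich bins had 1.45 ± 0.0114 times the 5hmC of gene-poor bins (SD, n = 3).

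The number of genes that start in a bin gave another picture than the length that genes cover. In 5 classes ranked by gene starts, 5hmC was 0.157, 0.172, 0.183, 0.179 and 0.155, so it was highest in the middle class and about equal at both ends. The top class minus the bottom class was -0.00207 ± 0.000826 for 5hmC. 5mC fell by 0.0810 and the rest rose from 0.128 to 0.211, a difference of 0.0831 ± 0.00326 (SD from 3 libraries per assay). The unmodified rest thus followed the number of gene starts more closely than gene coverage. Ranked by CpG sites per kb, the top class exceeded the bottom class by 0.0562 ± 0.00167 in 5hmC and by 0.0578 ± 0.00655 in the rest, and was lower in 5mC, with a difference of -0.114 ± 0.00633.

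**Figure D2:**
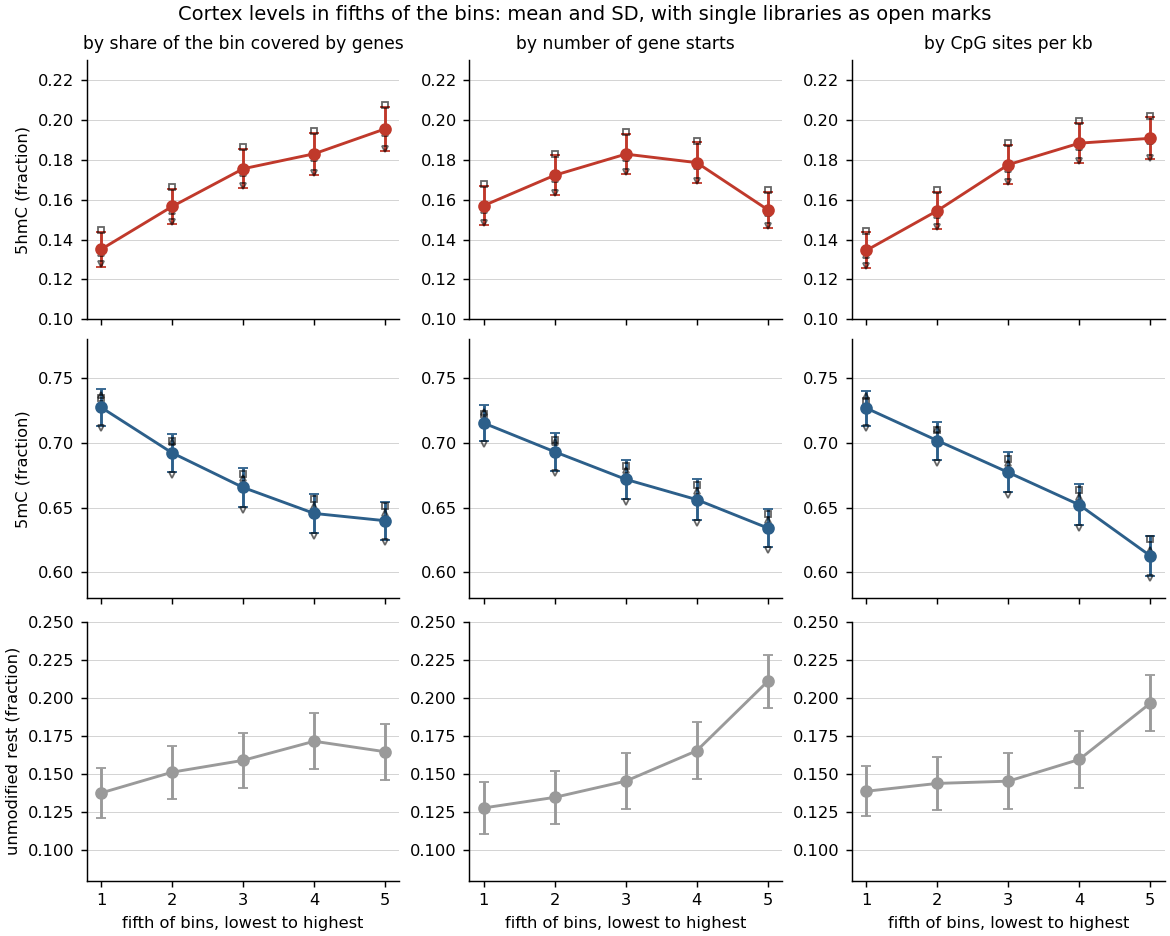
Mean cortex level (fraction) of 5hmC, 5mC and the unmodified rest in 5 classes of bins ranked by gene coverage, by the number of gene starts and by CpG density, with the SD as error bars and the single libraries as open marks. 5hmC goes up with coverage, from 0.135 to 0.196, but is highest in the middle class of gene starts, at 0.183, while the rest goes up to 0.211 in the class with most gene starts.

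Coverage and gene starts were then crossed, with bins cut into 3 classes by each. Among bins of high coverage, those with few starts, which hold long genes, had a 5hmC level of 0.194 ± 0.0112 and a rest of 0.128 ± 0.0175 (171 bins). High-coverage bins with many starts had a 5hmC level of 0.186 ± 0.0107, a 5mC level of 0.614 ± 0.0153 and a rest of 0.199 ± 0.0187 (373 bins). In each library the many-start bins lay below the few-start bins in 5hmC, with a mean difference of -0.00813 ± 0.000509 (SD, n = 3). The gap was wider among bins of low coverage, where 109 bins with many starts had a 5hmC level of 0.0952 ± 0.00565 and 471 bins with few starts had 0.145 ± 0.00918. Such bins of low coverage and many starts hold many short genes, and 5mC there was 0.713 ± 0.0151. They include gene family clusters described below, such as the Vmn1r bin chr7:22000001-23000000, with 10.6% coverage, 47 gene starts and a 5hmC level of 0.0168. Coverage and gene starts are not crossed here without these clusters, so their part in the wider gap was not measured. At a given class of gene starts the rest moved with coverage by no more than about its SD, with a difference between high and low coverage of -0.00299 ± 0.00302 for few starts and 0.00757 ± 0.00721 for many starts. CpG density and coverage each went with 5hmC when the other was held, more so at the low end of the other. At high coverage 5hmC was higher than at low coverage by 0.0474 ± 0.00250 among bins of low CpG density and by 0.0139 ± 0.00205 among bins of high CpG density. At high CpG density it was higher than at low density by 0.0505 ± 0.00109 among bins of low coverage and by 0.0170 ± 0.000219 among bins of high coverage.

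As a description across the 2413 bins, which share libraries and are not replicates, 5hmC had a Pearson's r of 0.545 with gene coverage, 0.470 with CpG density and -0.128 with the number of gene starts. The sign of the last was not stable. With gene starts 5hmC had a Spearman's rho of 0.0832, and an r of 0.0409 without the bins of gene family clusters described below. 5mC had an r of -0.784 with CpG density, and the rest had an r of 0.718 with the number of protein-coding gene starts. 5hmC and 5mC were inversely related, with a mean r of -0.580 ± 0.00437 (SD, n = 3) when each TAB-seq library was set against the mean 5mC level, and a mean Spearman's rho of -0.673. The relation was looser in gene-rich bins, with r going from -0.524 and -0.580 in the 2 classes with least coverage to -0.401, -0.342 and -0.210 in the classes above. The rest is computed from both marks, so its r with 5mC, -0.663, and with 5hmC, -0.224, partly follow from its definition.

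To say which bins differed from the cortex average, the level of each bin was taken as log2(level/(1 - level)) minus the mean of that value over the autosomal bins of the library, and tested with limma over the 3 libraries. For 5hmC, 2263 bins (93.8%) had a Benjamini-Hochberg adjusted p under 0.05, with 1495 above (62.0%) and 768 below (31.8%). For 5mC, 2161 bins (89.6%) passed, 1131 above (46.9%) and 1030 below (42.7%). For the rest, tested on the fraction scale over all 6 libraries, 2061 bins (85.4%) passed, 770 above (31.9%) and 1291 below (53.5%). With libraries centred on their median instead, the split was 1083 above and 1084 below for 5hmC, 1080 and 1081 for 5mC, and 1053 and 890 for the rest. Since nearly every bin passes, a call says little by itself and the levels carry the description.

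The joint calls describe how the calls of both marks combined, with libraries centred on the mean. Joint counts with centring on the median were not made. Of all bins, 62.0% were above and 31.8% below in 5hmC, and 46.9% above and 42.7% below in 5mC. In 924 bins (38.3%) 5hmC was above and 5mC below the cortex average, and these bins had a mean gene coverage of 64.1%. The opposite pattern, 5hmC below and 5mC above, held in 651 bins (27.0%) with a mean coverage of 24.5%. Both marks were above in 381 bins (15.8%), and in 380 of them the rest was below its mean. Both marks were below in 79 bins (3.27%), all with a rest above its mean, and these held on average 50.2 gene starts. The side of the rest in these last 2 classes follows largely from its definition. In the class with most coverage 440 of 482 bins were above the average in 5hmC (91.3%, against 62.0% of all bins), and in the class with least coverage 88 of 483 (18.2%).

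Chromosomes differed from each other, but by little compared with the spread of bins within them. Differences between chromosomes held 3.28% of the variance of 5hmC over bins, 4.10% of that of 5mC and 7.36% of that of the rest, whereas the 5 classes of gene coverage held 27.7%, 38.02% and 7.12%. In a limma fit over the 19 autosomes, 18 differed from the autosomal mean in 5hmC (94.7%), 17 in 5mC (89.5%) and 18 in the rest (94.7%). Each library was centred on its own mean beforehand, so the SEs of these differences do not contain its overall shift.

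Chromosome 7 had the lowest 5hmC level of all autosomes, with 0.144, 0.154 and 0.139 in the 3 libraries. Its mean of 0.146 ± 0.00794 (SD, n = 3) was -0.0235 ± 0.000682 (SE) from the autosomal mean (limma adjusted p = 1.31e-06), and its rest was the highest, at 0.187. It carried more gene starts per bin than any other autosome, 33.0 on average, and its bins spread most widely in 5hmC, with an SD of 0.0621. Chromosome 7 also holds receptor gene clusters with low 5hmC, described below, such as chr7:22000001-23000000 at 0.0168. Its mean without such clusters is not given here. Chromosomes 17 and 3 followed, with 5hmC levels of 0.162 ± 0.00914 and 0.165 ± 0.00977. At the other end stood chromosomes 18, 11 and 9, with 0.178 ± 0.00997, 0.177 ± 0.0101 and 0.177 ± 0.0100.

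5mC was lowest on chromosome 11, at 0.649, 0.653 and 0.626 in the 3 libraries, a difference of -0.0312 ± 0.000353 (SE) from the autosomal mean (limma adjusted p = 1.79e-14). Chromosome 11 had the most CpG sites per kb, 9.80, and both more 5hmC and more rest than the average. Chromosomes 19 and 9 came next in low 5mC, with 0.660 and 0.663. The highest 5mC levels were those of chromosomes 3, 14 and 1, with 0.690, 0.688 and 0.684. The rest was highest on chromosomes 7, 11 and 19, with 0.187, 0.180 and 0.168, and lowest on chromosomes 18 and 16, with 0.142 and 0.143, before chromosomes 3 and 14 with 0.145 each. Across the 19 autosomes, as a description, 5mC had an r of -0.877 with CpG density and the rest an r of 0.888 with gene starts per bin. 5hmC had an r of 0.113 with gene coverage and of -0.637 with gene starts. As Spearman's rho, which depends less on a single chromosome, the values for 5hmC were 0.319 and -0.261.

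**Figure D3:**
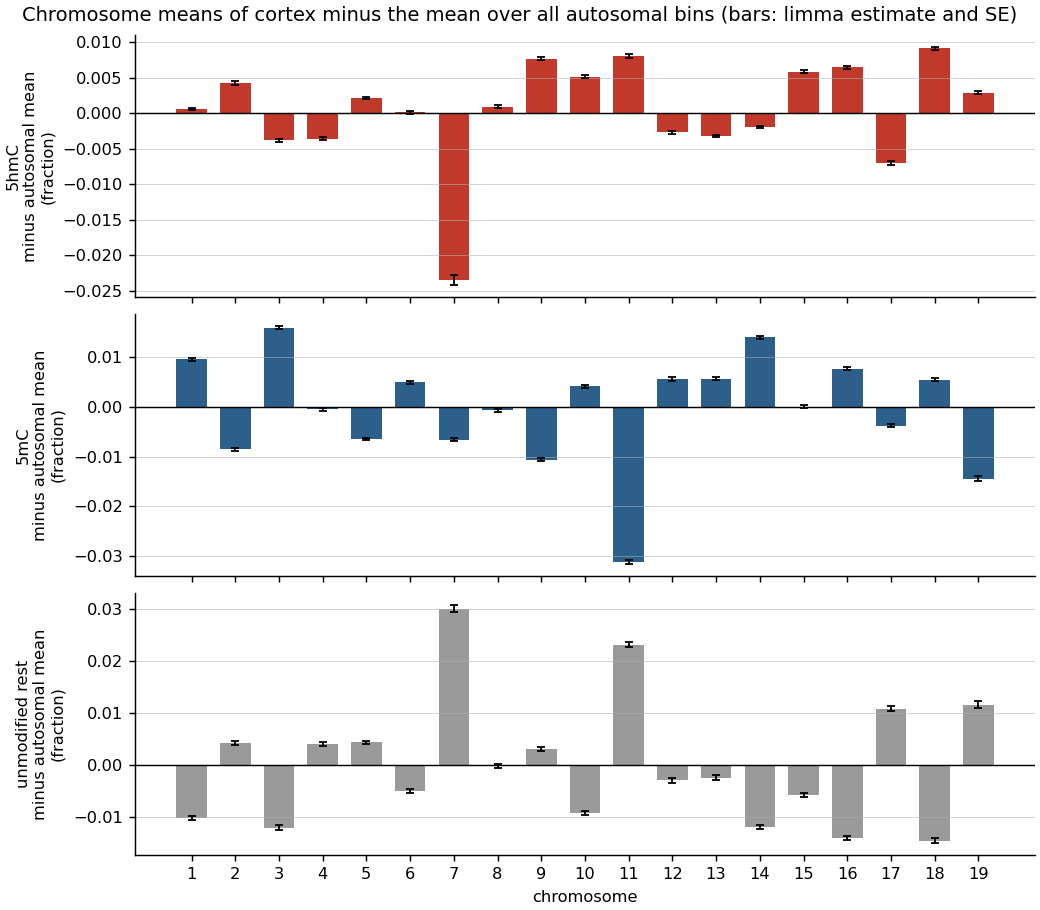
Bars give the mean 5hmC, 5mC and rest (fractions) of each autosome minus the mean over all autosomal bins, with the limma SE as error bars. Chromosome 7 lies 0.0235 below the mean in 5hmC and chromosome 11 lies 0.0312 below it in 5mC.

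The bins with the highest 5hmC held long genes, several of them with roles at the neuronal surface. Extreme bins were picked by their levels, so these are descriptions with no test. The highest, chr9:29000001-30000000, lies to 96.3% in Ntm, which encodes the adhesion protein neurotrimin. Its 5hmC level was 0.253, 0.263 and 0.241 in the 3 libraries, its 5mC level 0.596, 0.592 and 0.572, and its rest 0.161 ± 0.0172. Each library of this bin lay above the mean of its own library by a wide margin in 5hmC and below it in 5mC.

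Next came chr17:5000001-6000000, with Arid1b, a subunit of a chromatin remodelling complex, and Zdhhc14, at 0.251 ± 0.0100. The bin chr5:132000001-133000000, with the neurodevelopmental gene Auts2, had 0.251 ± 0.0139. Bins of Adgrl3, an adhesion receptor of synapses (chr5:81000001-82000000), and of Magi2, a synaptic scaffold (chr5:20000001-21000000), had 0.2498 ± 0.0128 and 0.2489 ± 0.0126. The means of these bins differ by less than the SD over libraries, which also contains the overall shift of each library.

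Equal 5hmC did not mean an equal remainder. The Auts2 bin kept a 5mC level of 0.662 ± 0.0169 and a rest of 0.0866 ± 0.0219, whereas the Arid1b bin had a 5mC level of 0.574 ± 0.00650 and a rest of 0.174 ± 0.0120. By the share of 5hmC in modified cytosine, the Arid1b bin had the top value of 30.4%, and Ntm had 30.1%, Opcml 29.4% and Magi2 28.9%. Opcml is a relative of Ntm in the same family of adhesion proteins and lies in the neighbouring bin, chr9:28000001-29000000.

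The lowest 5hmC levels were those of bins that hold clusters of chemoreceptor and other recently duplicated genes, and 4 of the 5 lie on chromosome 7. The bin chr7:22000001-23000000, with Vmn1r genes for vomeronasal receptors of pheromones, had 0.0154, 0.0160 and 0.0190 5hmC in the 3 libraries. Its 5mC level was 0.751, 0.756 and 0.707, above the mean of its library in each case, and its rest was 0.245 ± 0.0267. Its neighbours chr7:21000001-22000000, also with Vmn1r genes, and chr7:23000001-24000000, with Nlrp5, a gene of the oocyte, and Vmn1r181, had 5hmC levels of 0.0168 ± 0.00104 and 0.0177 ± 0.000477. The Vmn2r bin chr7:8000001-9000000 had 0.0174 ± 0.000891 and chr5:94000001-95000000, a cluster of predicted genes, had 0.0174 ± 0.00168. Just outside was the secretoglobin cluster of chr7:33000001-34000000, at 0.0177 ± 0.00136.

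In these 5 bins the rest lay between 0.220 and 0.286, so that less 5hmC went with more unmodified cytosine as well as with more 5mC. The share of 5hmC was between 2.15% and 2.44%. The clusters consist of near-identical gene copies, among which the placing of reads is uncertain.

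The lowest 5mC and the largest rest belonged to gene-dense and CpG-dense bins. In chr10:80000001-81000000, which holds 55 protein-coding genes, among them Gng7, a G protein subunit, Sbno2 and Dot1l, a histone methyltransferase, 5mC was 0.436, 0.444 and 0.427. Its 5hmC level was 0.156 ± 0.00716 and its rest 0.409 ± 0.0114. The bin had 68 gene starts and 20.05 CpG sites per kb. The 5 lowest bins of 5mC continued with chr8:70000001-71000000 (Crtc1, a CREB coactivator, and Ell) at 0.461 ± 0.0196, and chr8:84000001-85000000 (Cacna1a, a neuronal calcium channel, and Nfix) at 0.470 ± 0.00890. They ended with chr11:69000001-70000000 (Dnah2, Chd3, Polr2a) at 0.486 ± 0.0118 and chr15:102000001-103000000 (Atf7 and the Hoxc cluster) at 0.490 ± 0.0200. Just outside was chr11:97000001-98000000, with Arhgap23, at 0.497 ± 0.00116.

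The same bins led in rest, with chr11:96000001-97000000, which holds the Hoxb cluster and Skap1, in place of the Hoxc bin, at 0.365 ± 0.00983. Just outside was chr13:120000001-120421639, a bin of 4 measured bins of 100 kb, also at 0.365. The 5 bins with the largest rest had 5hmC levels between 0.130 and 0.165, below the autosomal mean. These levels lay on both sides of the 25th percentile of all bins, 0.149. The share of 5hmC in the modified cytosine of these 5 bins was 20.5% to 26.3%.

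The highest 5mC was found in gene-poor bins and in clusters of genes of other organs. The top value, 0.833 ± 0.0318 in chr16:98000001-98207768, rests on only 2 bins of 100 kb at the end of the chromosome, and the fourth, chr2:182000001-182113224 at 0.787 ± 0.0185, on 1. Among bins with all their parts, chr13:27000001-28000000, with the prolactin family that acts in placenta and pituitary, had 0.809, 0.810 and 0.784. The secretoglobin bin chr7:32000001-33000000 had 0.789 ± 0.0201 and the gene-poor bin chr3:4000001-5000000 had 0.785 ± 0.0125. Just outside lay chr13:87000001-88000000, with 0.540% gene coverage, at 0.784 ± 0.0154. These bins differed in 5hmC, from 0.0188 ± 0.000279 in the secretoglobin bin to 0.112 ± 0.00951 in the prolactin bin.

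In 4 of the 5 bins with the smallest rest both marks were above the autosomal mean. In chr16:24000001-25000000, 59.9% of it within Lpp, which encodes a LIM domain protein of cell contacts, 5hmC was 0.228, 0.242 and 0.221 and 5mC 0.717, 0.718 and 0.689, leaving 0.0619 ± 0.0197. Similar were the bins of the long noncoding RNA Pvt1 (chr15:62000001-63000000), Gpc6, a glypican (chr14:117000001-118000000), and Cdkal1, a tRNA-modifying enzyme (chr13:29000001-30000000), with rests of 0.0696, 0.0731 and 0.0780. The bin at the end of chromosome 16 named above also belongs here, at 0.0708, with high 5mC but a 5hmC level of 0.0958. Just outside, at 0.0782, was chr13:26000001-27000000.

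**Figure D4:**
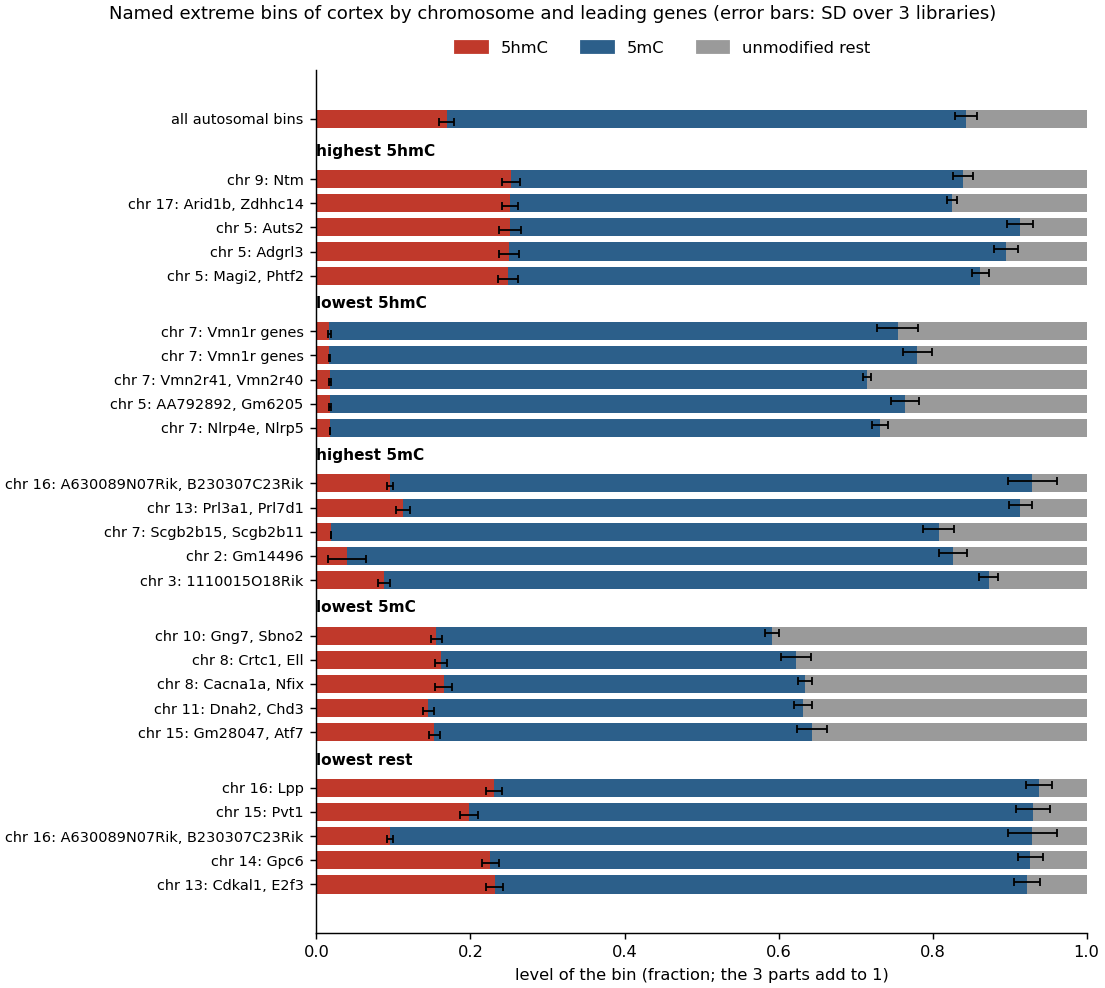
Each bar is a bin named in the text, divided into its 5hmC, 5mC and unmodified rest (fractions that add to 1), with the SD over 3 libraries for each mark and the mean of all autosomal bins at the top. 5hmC shrinks to below 0.018 in the 5 lowest bins while the 5mC of those bins stays at 0.697 or above, and the bins with the lowest 5mC show a rest of 0.357 to 0.409.

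Wider tails showed the same kinds of DNA. The 100 bins with the highest 5hmC came from all 19 autosomes, had a median gene coverage of 77.5% and a median of 14 gene starts. The 100 lowest came from 15 autosomes, with a median coverage of 27.4% and 36 gene starts. Over all bins these medians were 52.0% and 17. The 100 bins of largest rest had a median of 56 gene starts and 13.7 CpG sites per kb, against 8.08 over all bins.

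Bins were also classed by the gene families clustered in them, with at least 5 gene starts of a family in a bin. Of the 100 bins with the lowest 5hmC, 55 held a cluster of at least 1 of the 13 families searched, and of the 100 highest none did. Such a cluster lay in 145 of all 2413 bins, or 6.01%. The histone class also takes in the H2 genes of the major histocompatibility complex, whose symbols begin alike, and its levels are not described. Vomeronasal receptor clusters, 35 bins on 7 chromosomes, had a mean 5hmC level of 0.0639 ± 0.00355 (SD, n = 3) and a rest of 0.220 ± 0.0150, and 26 of the 35 were among the 100 lowest, which are 4.14% of all bins. In limma, 34 of the 35 were below the cortex average in 5hmC (31.8% of all bins were) and 31 above it in 5mC (46.9% of all bins).

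Olfactory receptor clusters, 54 bins, were less extreme, with 5hmC at 0.120 ± 0.00798 and bins from 0.0273 to 0.193. Immunoglobulin V genes, in 7 bins, had a 5hmC level of 0.0767 ± 0.00471. Zinc finger clusters, in 21 bins, had 0.124 ± 0.00793 with a rest of 0.221 ± 0.0183. The 5mC means were 0.697 for olfactory receptors, 0.716 for vomeronasal receptors and 0.715 for V genes. For the means of these families low 5hmC thus went with 5mC above the autosomal mean. Zinc finger clusters, also low in 5hmC, had a 5mC mean of 0.655, below the autosomal mean. Of the 54 olfactory receptor bins, 34 were above the cortex average in 5mC and 17 below (46.9% and 42.7% of all bins).

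The Hox clusters had low 5mC instead. The 4 Hox bins, which hold the homeobox genes of the body axis, had a 5mC level of 0.537 ± 0.0108 and a rest of 0.314 ± 0.0138, with 5hmC at 0.149 ± 0.00857. Keratin clusters, in 6 bins, had 0.167 ± 0.00762 5hmC, near the autosomal mean.

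**Figure D5:**
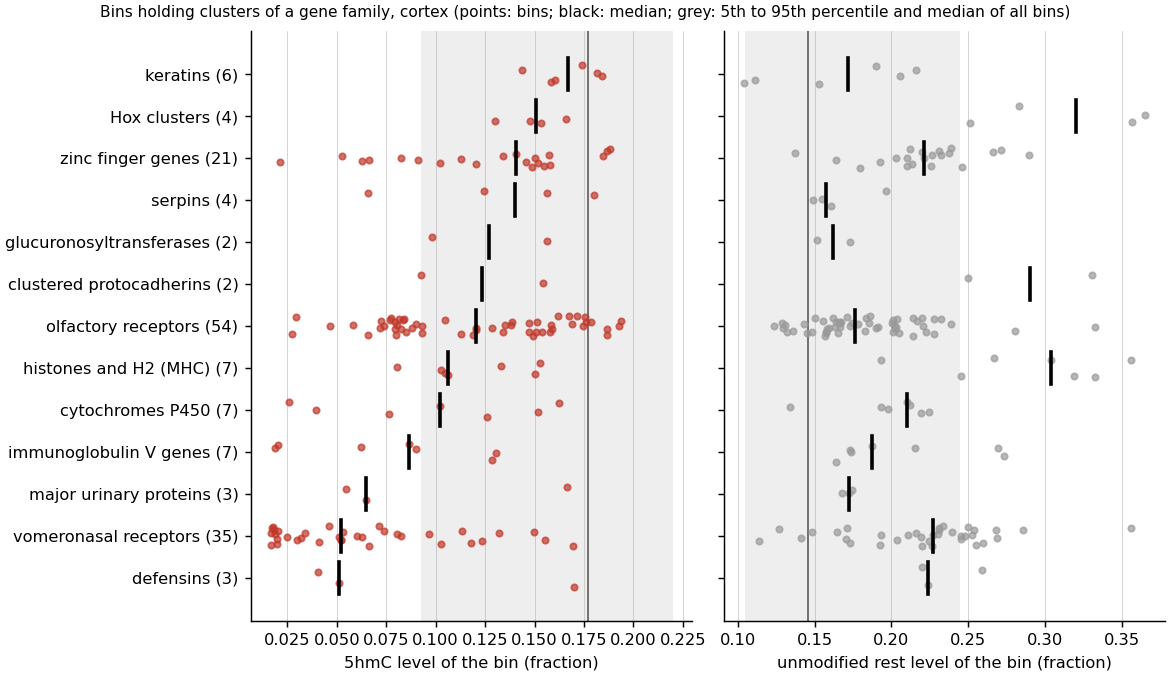
Points are bins of 1 Mb that hold clusters of a gene family, with the number of bins in brackets, placed by 5hmC on the left and by the unmodified rest on the right (fractions), black bars mark medians, and grey marks the 5th to 95th percentile and the median of all bins. Vomeronasal receptor bins reach down to 0.0168 in 5hmC, and Hox bins lie to the right in rest. The class marked histones and H2 also holds genes of the major histocompatibility complex.

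Some bins went against the relation of 5hmC with gene coverage. Among bins of the class with least coverage, the highest 5hmC levels were 0.217 ± 0.00978 and 0.216 ± 0.0130 in the neighbouring bins chr18:55000001-56000000 and chr18:54000001-55000000, the latter with Zfp608, and 0.206 ± 0.00915 in chr4:105000001-106000000 (Prkaa2, a subunit of the energy-sensing kinase AMPK, and Plpp3). Only 12.3% to 23.6% of these bins was covered by genes.

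In the class with most coverage, chr4:113000001-114000000 had a 5hmC level of 0.0188, 0.0196 and 0.0189. It is covered by Skint5 and Skint6, members of a family known from skin T cells, over 83.5% of its length with only 3 gene starts. The zinc finger cluster chr4:146000001-147000000 had 0.0213 ± 0.000905 and chr1:85000001-86000000, with C130026I21Rik and Sp100, 0.0511 ± 0.00288.

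Gene lists for the cell types of brain were placed on the map, each gene by the bin that holds most of it, and the counts are descriptions of the lists beside those over all bins. Genes on chromosome X, Amelx and Pgk1, had no autosomal bin. Genes of synapses and ion channels lay in 30 bins with a median 5hmC level of 0.192 ± 0.0126, against 0.177 over all bins. Of the 30 bins, 24 were above average (62.0% of all bins). The median gene coverage of the 30 bins was 66.3%, against 52.0% over all bins, so the 2 sets were not matched for coverage. Among the highest were the potassium channel gene Kcnma1 at 0.225 ± 0.00858, the postsynaptic scaffold gene Dlg2 at 0.219 ± 0.0143 and Kcnq3 at 0.217. The lowest were Gria4, a glutamate receptor subunit, at 0.131, Nlgn2, a postsynaptic adhesion gene of inhibitory synapses, at 0.145, Grin1 at 0.162 and Grm5 at 0.163. The bin of Nlgn2 also had a rest of 0.368, so low 5hmC there went with little 5mC, 0.486, while the Gria4 bin had 0.734.

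Genes of cortical excitatory neurons lay in 20 bins, 16 above average in 5hmC (62.0% of all bins) and 4 below (31.8% of all bins), with a median of 0.178 against 0.177 over all bins. Foxp1, a transcription factor gene, had 0.239 ± 0.0126, Fezf2, which specifies deep-layer neurons, 0.219 ± 0.0127, and Sox5 0.218 ± 0.0159. Near the low end was Rorb, a layer 4 marker, with 0.153. Of the 18 bins of interneuron genes 13 were above and 3 below (62.0% and 31.8% of all bins). They ran from 0.0814 in the bin of Lhx6 to 0.215 in that of Sox6. The bin of Lhx6 also holds 26 olfactory receptor genes.

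Among glial genes, 11 of 12 astrocyte bins were above average (62.0% of all bins), with Slc1a2, the main glutamate transporter, at 0.228 and Glul, glutamine synthetase, at 0.215. Of 13 oligodendrocyte bins 10 were above and 3 below (62.0% and 31.8% of all bins). They ran from Cspg4 at 0.211 to Mog, a myelin gene, at 0.0776. The bin of Mog also holds 47 olfactory receptor genes. Microglia and endothelial genes gave 10 of 14 bins above average, a share nearer to the 62.0% of all bins, with Tmem119, a microglial marker, highest at 0.204 and Aif1 lowest at 0.150.

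Genes of other organs, which cortex hardly uses, lay in 24 bins, 12 above and 11 below the average (62.0% and 31.8% of all bins), with a median of 0.166. At the low end were Cyp2c29 and Cyp3a11, liver cytochromes P450, at 0.0393 and 0.0766, and the milk protein genes Csn1s1, Csn2 and Csn3, which share a bin at 0.0982. At the high end the myosin genes Myh1, Myh2 and Myh4 shared a bin at 0.199. Housekeeping genes lay in 14 bins, 11 above and 2 below (62.0% and 31.8% of all bins), with a median of 0.187. Rps3, a ribosomal protein gene, was near the top at 0.218, and Sdha, a respiratory chain subunit, was lowest at 0.129. Markers of other brain regions fell in between, with 11 of 17 bins above average for cerebellar neurons and 7 of 11 for olfactory bulb neurons, both near the 62.0% of all bins. The lists overlap widely in level, and bins of 1 Mb hold many genes beside the named one.

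The enzymes of the marks themselves lay in 15 bins, 9 above and 5 below the average in 5hmC, close to the 62.0% and 31.8% of all bins. Idh2, whose product makes the cosubstrate of TET enzymes, had 0.203 and Mbd4, a glycosylase, 0.199. The maintenance methyltransferase gene Dnmt1 was lowest at 0.120, with a rest of 0.233. The bin of Dnmt1 also holds 11 olfactory receptor genes and 5 zinc finger genes. Tet1, Tet2 and Tet3 had similar 5hmC levels of 0.177, 0.170 and 0.168, but differed in 5mC, with 0.631, 0.708 and 0.531. In the bin of 100 kb that holds most of each gene the 5mC level was 0.654, 0.600 and 0.479, so that Tet1 and Tet2 change places at this scale while Tet3 stays lowest.

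In the finer bins of 100 kb, which exist for 5mC only, the level within a bin of 1 Mb typically ranged over 0.173 (median over 2375 complete bins). The lowest level, 0.0719, 0.0826 and 0.0600 in the 3 libraries, was that of chr15:102900001-103000000, in the middle of the Hoxc cluster. It was followed by chr13:120000001-120100000, with predicted genes, at 0.110 ± 0.0160 and by chr6:52200001-52300000, in the Hoxa cluster, at 0.133 ± 0.0117. The highest were 0.880 ± 0.0498 in chr7:9400001-9500000, 0.877 ± 0.0506 in chr7:9700001-9800000, with Vmn2r46, and 0.872 ± 0.0344 in chr14:124800001-124900000, of which 97.8% is unknown sequence. The spread between libraries at the high end was wide, with 0.831 to 0.931 in the first of these, against a median SD of 0.0177 over all bins of 100 kb.

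The 5mC level inside marker genes was also used to check the labelled tissue, as a description. Over all autosomal bins of 100 kb, cortex was below cerebellum in 91.0% and below olfactory bulb in 88.4%. For genes of cortical excitatory neurons the median was 0.511 in cortex, against 0.600 for olfactory bulb and 0.661 for cerebellum, a median difference from cerebellum of -0.118 against -0.0613 over all bins, although cortex was below cerebellum in only 17 of 20, a smaller share than over all bins. For interneuron genes cortex was below olfactory bulb in 9 of 20. Mef2c showed the widest contrast with cerebellum on this list, with 0.425 ± 0.00866 in cortex (SD, n = 3) and 0.722 ± 0.00277 in cerebellum (n = 2), while olfactory bulb had 0.433. For genes of cerebellar neurons cortex was below cerebellum in only 9 of 18, as in Grm4, a glutamate receptor of granule cells, with 0.693 ± 0.0294 in cortex and 0.332 ± 0.0102 in cerebellum. For genes of olfactory bulb neurons cortex was below olfactory bulb in only 3 of 11, as in the transcription factor gene Meis2, with 0.627 ± 0.0134 in cortex and 0.322 ± 0.0264 in olfactory bulb. The median over genes of other organs, 0.728, was also lower in cortex than in the other tissues, as it was over all bins. Mef2c, Grm4 and Meis2 were picked as examples after their values were seen. Expression was not analysed here.

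Set against the other tissues, cortex had the flattest 5hmC map relative to its own level. The measures given first are divided by a level of the tissue, so they also depend on its overall level, which was not compared here. The SD over bins, in percent of the mean, was 23.9 ± 0.386 for cortex (SD, n = 3), against 30.02 ± 0.973 for olfactory bulb and 43.3 ± 0.575 for cerebellum. Gene-rich bins had 1.45 ± 0.0114 times the 5hmC of gene-poor bins in cortex, against 1.54 ± 0.0324 times for olfactory bulb and 2.19 ± 0.0219 times for cerebellum. For both measures the 3 cortex libraries lay below all libraries of each other tissue (exact permutation test, both sides, p = 0.1, the smallest that 3 against 3 allows, and 0.233 after adjustment over the 14 comparisons made).

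As a difference of levels, the 5hmC gradient of cortex, 0.0604, was below that of cerebellum, 0.0705 ± 0.00136, in every library (exact permutation test, p = 0.1), and overlapped that of olfactory bulb, 0.0627 ± 0.00226 (p = 0.3). The 5mC gradients of -0.0875, -0.0916 and -0.0844 in cortex, olfactory bulb and cerebellum overlapped (exact permutation test, p = 0.5 for both). 5mC varied over bins by 7.81% of its mean in cortex and 8.31% in cerebellum, with no overlap between libraries (exact permutation test, p = 0.1). The correlation of 5hmC and 5mC across bins was -0.580 in cortex and olfactory bulb and -0.589 in cerebellum, with overlapping libraries (exact permutation test, p = 1 and 0.2). No p in these comparisons could pass 0.05.

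Bin by bin, the deviation of cortex from its own mean differed from that of the other tissues in 2042 bins of 5hmC (limma on the log2 ratio scale, adjusted p under 0.05, 84.6%), with 969 higher (40.2%) and 1073 lower (44.5%) in cortex. The 969 bins had a median gene coverage of 34.1% and the 1073 a median of 62.6%. For 5mC 1591 bins passed (65.9%), 758 higher (31.4%) and 833 lower (34.5%). The comparison is of each tissue's bins relative to its own average, so it does not say which tissue had more of a mark in total.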

How the data were processed

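TAB-seq and oxBS-seq libraries of mouse tissue were analysed as deposited. Per the paper's methods and the labels, the authors mapped paired reads uniquely to mm10 with Bismark (version not given in the sources used here). They took the level of a CpG site as C over C plus T reads. The authors deposited a fraction between 0 and 1 per bin, of 1 Mb for 5hmC and of 100 kb for 5mC, with one table per library and no read counts. How sites were combined into bins, and the conversion rates, are not given in the sources used here. Depth is therefore unknown, and no counting intervals were computed.

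Bins listed at 0 or 1 in any library were dropped, 5mC was averaged over the remaining 100 kb bins of each 1 Mb bin without weights, and chromosome X was left out. Gene coverage, gene starts (GENCODE M21) and CpG density were taken from GRCm38. The SD of the rest combines the SDs of both assays. Log2(level/(1 - level)), centred on the mean over autosomal bins of the library, was tested with limma 3.58.1 in R 4.3.3, with Benjamini-Hochberg adjustment at 0.05. The rest and the chromosomes were fitted on the fraction scale, and the rest as the sum of both assays with reversed sign. Tissues were compared in limma as cortex minus the mean of olfactory bulb and cerebellum, and for single quantities by two-sided exact permutation tests over libraries. Python 3.11.15, numpy 2.4.6, pandas 2.3.3 and matplotlib 3.10.9 were used, and the fits were tested on simulated data. The p-values measure the spread between libraries, which the labels call technical replicates.

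Named bins were the 5 highest and 5 lowest of each measure, the 3 highest or lowest against the trend with gene coverage, the 3 highest and lowest in difference from the other tissues, and the 3 highest and lowest bins of 100 kb. Named genes were up to 4 at each end of fixed lists, and all Tet genes. Some members that this rule names are not reported here, but they remain in the counts. Members and lists were chosen with earlier results of these data known. Alternatives changed the bins kept, weights, centring, scale, limma options, the samples in the fit, gene measures and libraries. RNA-seq samples of the series were not analysed here.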

Additional observations from a re-analysis of the deposited data

Results flagged for a closer look

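Bins where cortex differed most from the other tissues, after each library was centred on its own mean, are given with the limma difference of the log2 ratio, cortex minus the mean of olfactory bulb and cerebellum. Each was brought out by the test of the difference between tissues. For 5hmC, 84.6% of all bins passed that test, and for 5mC 65.9%.

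The highest 5hmC differences lay in bins with low levels. The bin chr6:69000001-70000000, a cluster of Igkv genes for antibody light chains, had a difference of 1.19 ± 0.0548 (SE, limma adjusted p = 1.49e-08). Cortex had a 5hmC level of 0.0866 ± 0.00732, olfactory bulb 0.0342 ± 0.00418 and cerebellum 0.0203 ± 0.000878 (SD, n = 3). The gene-poor bin chr1:102000001-103000000 had a difference of 0.98 ± 0.0377, with levels of 0.108, 0.0578 and 0.0256 in the same order of tissues. In chr7:106000001-107000000, with Gvin1 and olfactory receptors, the difference was 0.97 ± 0.0615, with levels of 0.0583, 0.0235 and 0.0174, but on the fraction scale it had the opposite sign, -0.00682.

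On the other side, chr14:124000001-124902244, covered to 67.7% by Fgf14, whose product acts on neuronal sodium channels, had a 5hmC difference of -0.85 ± 0.0357 (limma adjusted p = 1.00e-08). Cortex had 0.177, olfactory bulb 0.165 and cerebellum 0.244. The end of chromosome 2, chr2:182000001-182113224, had -0.91 ± 0.357 (limma adjusted p = 0.0344), but its 3 cortex libraries ran from 0.0152 to 0.0638, and without cortex replicate 3 the difference was -0.36 and did not pass. The cluster of Esp pheromone genes chr17:39000001-40000000 had -0.82 ± 0.353 (limma adjusted p = 0.0496). Without cortex replicate 2 it was -0.55 and did not pass. In this bin cortex had a 5hmC level of 0.0374 ± 0.00997, olfactory bulb 0.0278 ± 0.00578 and cerebellum 0.0712 ± 0.0359 (SD, n = 3). Cortex thus lay above olfactory bulb in level, and the cerebellum libraries varied widely.

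For 5mC, the largest differences below the other tissues were in bins of the long genes Ptprd and Csmd1. The bin chr4:77000001-78000000, wholly within Ptprd, a receptor phosphatase of synapses, had -0.69 ± 0.0303, where cortex had a 5mC level of 0.628 ± 0.00968 (SD, n = 3), olfactory bulb 0.748 ± 0.000881 and cerebellum 0.796 ± 0.0146 (SD, n = 2). The neighbouring bins chr8:16000001-17000000, wholly within Csmd1, and chr8:17000001-18000000, covered to 53.6% by it, had -0.62 ± 0.0273 and -0.61 ± 0.0253. Their 5mC levels in cortex were 0.616 and 0.620, and in cerebellum 0.775 and 0.781. All libraries of cortex lay below those of the other tissues there.

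Above the other tissues was chr11:118000001-119000000, with Rbfox3, which encodes the neuronal marker NeuN, at 0.57 ± 0.0284. Cortex had a 5mC level of 0.562, olfactory bulb 0.566 and cerebellum 0.472. The secretoglobin bin chr7:32000001-33000000 had 0.51 ± 0.0398 and the Vmn2r bin chr7:8000001-9000000 had 0.47 ± 0.0333. In both, cortex and olfactory bulb were alike, with 0.789 and 0.797 in the former and 0.697 and 0.702 in the latter, and cerebellum was lower, at 0.732 and 0.645.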

How the results depend on the processing

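All 75 alternative counts of bins or chromosomes past the threshold stayed within 1.5 times the reported count. The gene coverage gradient moved with the bins used. With chromosome X it was 0.0708 for 5hmC and 0.0177 for the rest, and between bins covered over at least 95% and at most 5% it was 0.0773 and 0.0139. Ranked by gene starts, it was -0.00207 for 5hmC, -0.0810 for 5mC and 0.0831 for the rest, so that the sign for 5hmC turned. Keeping all bins, with levels limited to just above 0 and just below 1, adds the 57 bins of unknown sequence listed at 0. Mean 5mC was then 0.658 and the rest 0.177, the gradients were 0.0776, -0.00477 and -0.0729 for 5hmC, 5mC and the rest, and the correlation of 5hmC and 5mC was 0.257. Otherwise that correlation was -0.553 with CpG weights, -0.673 as Spearman's rho, -0.602 without the bins of gene family clusters (an alternative chosen after seeing the data) and -0.585 to -0.575 with a library left out. Without those clusters it differed from that of cerebellum by 0.0425, against 0.00954 over all bins. In chr7:106000001-107000000 the 5hmC difference from the other tissues was -0.00682 on the fraction scale. Of the bin differences from other tissues, only those of chr2:182000001-182113224 and chr17:39000001-40000000 lost their call under an alternative. With limma's trend and robust options their adjusted p was 0.101 and 0.128, and with a replicate block the latter had 0.0687. 5 values of bins that lack some 100 kb bins could not be given for full bins only.

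Whether libraries with the same replicate number came from the same mouse is not stated. Deviations of TAB-seq and oxBS-seq libraries with the same number correlated at -0.136, -0.0112 and -0.0985, against -0.0954 to 0.188 for other numbers. The deviations are of different marks, which need not vary together within a mouse, so these values cannot decide the pairing. With a replicate block, 2061 bins differed in the rest, 2055 in 5hmC between tissues and 1389 in 5mC between tissues, against 2061, 2042 and 1591 without it. The unknown depth leaves the precision within a library unmeasured.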
